A study of Mus musculus with 8 samples.

Results

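The genes described here were a list of 60 genes of mitosis and the kinetochore. They were chosen by name from what their products are known to do, with earlier results of these data known. All 60 had a row among the 12589 genes of the deposited expression table. The study asked what changes in stromal cells of the spleen when retinoic acid signalling is blocked. RNA was sequenced from mSSC-YFP, an immortalised mouse spleen stromal line that carries a yellow fluorescent protein. In the vehicle group, 4 samples were grown with DMSO, and in the treated group 4 samples were grown with BMS493, an inhibitor of retinoic acid signalling, each for 48 h. All 8 samples came from the same line in serum-containing medium, with no other cells named in the labels, so the values describe a cell line and not the spleen.

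The value used for each gene was the authors' mean of the log2 normalised expression over the samples, termed the level below. It carries no replicate values, so no SD, no n and no depth per sample can be set beside it. Its label names no sample, and it was taken as a mean over all 8 samples, DMSO and BMS493 together. No comparison of BMS493 with DMSO was made for these genes, and each value below is a description with no test. A long transcript gives more reads than a short transcript present in the same number of copies. Levels were therefore compared between genes per kb, as the level minus the log2 of the exon length in kb, with the exon length taken as the union of all exons of the gene in the GENCODE annotation of GRCm38. In bulk RNA, more dividing cells and more RNA per dividing cell cannot be told apart. Percentiles give the share of the table's genes with a lower value.

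When a cell divides, the kinase Cdk1 bound to cyclin A or cyclin B drives it into mitosis, condensins and topoisomerase compact and untangle the chromosomes, and motors and microtubule-binding proteins build the spindle. Kinetochores, protein assemblies on each centromere, hold the chromosomes to the spindle, and the spindle checkpoint delays anaphase until all of them are attached. The anaphase-promoting complex with Cdc20 then marks cyclin B and securin for destruction, and cytokinesis splits the cell. Many of these genes are transcribed late in the cell cycle, and their promoters are known for a cell cycle homology region (CHR), read by the MuvB complex, and for CCAAT boxes, read by the factor NF-Y.

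The promoters of the 4 genes with the highest level per kb that had a promoter window are shown first, because they carry both kinds of letters, and that of Kif18a is shown because it is a low member with neither. These 5 were chosen after the values had been seen and do not stand for all members. Cenpf, Ncapg and Ttk, at 2.71, 2.62 and 2.47 per kb, held both kinds of letters. Tacc3 and Birc5, at 5.16 and 4.74 per kb, held neither. Medians over all members with a window are given below. Each stretch is the 250 bases before the transcription start in RefSeq (GRCm38.p6), read 5′ to 3′ on the strand of the gene. Capitals mark the CHR letters TTTGAA and the letters CCAAT on either strand, so that TTCAAA and ATTGG are the same letters read on the other strand.
Top2a, chr11:99024190-99024439, minus strand: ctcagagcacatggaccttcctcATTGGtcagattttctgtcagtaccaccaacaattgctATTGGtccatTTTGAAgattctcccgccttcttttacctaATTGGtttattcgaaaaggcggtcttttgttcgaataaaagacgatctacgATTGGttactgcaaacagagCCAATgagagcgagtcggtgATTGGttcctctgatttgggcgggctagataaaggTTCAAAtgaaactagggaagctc
Ccnb2, chr9:70421555-70421804, minus strand: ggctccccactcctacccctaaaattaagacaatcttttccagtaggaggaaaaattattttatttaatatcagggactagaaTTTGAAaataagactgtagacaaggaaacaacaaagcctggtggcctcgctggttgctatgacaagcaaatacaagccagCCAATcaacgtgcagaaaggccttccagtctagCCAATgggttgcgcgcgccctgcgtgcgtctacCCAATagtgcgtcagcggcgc
Cdc20, chr4:118437344-118437593, minus strand: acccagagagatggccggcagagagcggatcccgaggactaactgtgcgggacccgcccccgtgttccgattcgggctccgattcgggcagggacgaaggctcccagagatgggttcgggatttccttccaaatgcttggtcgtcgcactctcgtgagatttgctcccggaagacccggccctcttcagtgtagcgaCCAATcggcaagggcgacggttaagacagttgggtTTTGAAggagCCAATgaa
Cdk1, chr10:69352913-69353162, minus strand: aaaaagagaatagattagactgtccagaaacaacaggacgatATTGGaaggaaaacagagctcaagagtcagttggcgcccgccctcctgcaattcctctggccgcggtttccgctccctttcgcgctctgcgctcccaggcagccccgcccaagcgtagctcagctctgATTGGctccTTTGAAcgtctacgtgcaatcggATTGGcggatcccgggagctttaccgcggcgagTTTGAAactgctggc
Kif18a, chr2:109280488-109280737, plus strand: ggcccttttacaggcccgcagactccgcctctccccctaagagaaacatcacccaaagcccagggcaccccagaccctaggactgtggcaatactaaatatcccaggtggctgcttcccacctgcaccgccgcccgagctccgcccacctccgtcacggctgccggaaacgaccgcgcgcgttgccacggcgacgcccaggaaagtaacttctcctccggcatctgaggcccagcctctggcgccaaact
Top2a held 6 CCAAT and 2 CHR matches, Cdk1 held 3 and 2, and Cdc20 held 2 and 1. Ccnb2 held 3 CCAAT matches and 2 CHR matches, of which the CHR match at position 5 after the start lies beyond the printed bases. GENCODE places the start of Cdk1 and of Cdc20 inside the printed stretch. A match of letters is not by itself a bound site.

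As a group, the 60 genes were in the upper part of the table and spanned a narrower range than the table did. Their median level was 6.40, at percentile 77.7, against a median of 4.99 over all 12589 genes, and 50 of the 60 lay above that median. Per kb, their median was 4.06, at percentile 73.5, against 2.85 over all genes, and 49 of the 60 lay above that. The SD over the 60 genes was 1.18 for the level and 1.15 for the level per kb, against 2.18 and 2.16 over all genes. Levels ran from 3.16 for Cenpk to 9.15 for Top2a, and 55 of the 60 lay between 4 and 8. Together the 60 genes, 0.477% of the rows, made up 0.638% of the summed linear level, and the 5 highest in level held 28.0% of that share.

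**Figure D1:**
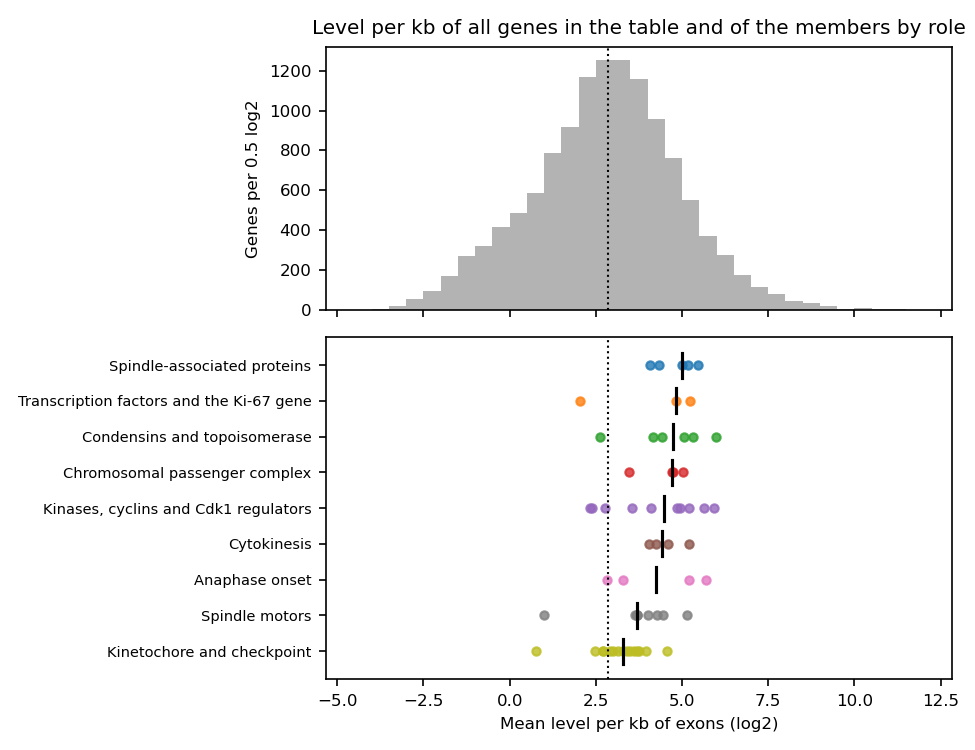
The upper panel counts all genes of the table with a length by level per kb (log2, in bins of 0.5), and the lower panel places the 60 genes by role on the same axis, with a bar at the median of each role and a dotted line at the median of all genes, 2.85. The 9 role medians lie to the right of the dotted line, from 3.28 for kinetochore and checkpoint genes to 4.99 for spindle-associated proteins.

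The culture itself carried the markers of stroma. Of 13 stromal marker genes, 12 had a row, with a median level of 7.48, from 4.82 for Tlx1, a factor of spleen development, to 13.3 for Col1a1, the main chain of type I collagen. Of 7 B cell markers only Cd74 had a row, at a level of 0.27, and of 6 macrophage markers only Cd68 did, at 1.36. Of 6 endothelial markers, Kdr and Pecam1 had a row, at levels of 2.83 and 0.47. Of 4 epithelial markers, Krt8 and Krt18 stood at 1.55 and 0.31, while Cdh1, which encodes E-cadherin, stood at 8.03, at percentile 95.1. Its part in the values of the 60 genes was not tested.

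Among kinases, cyclins and regulators of Cdk1, 10 genes with a median level per kb of 4.48, the members that act at the entry into mitosis ran from near the top of the list to near its bottom. Cdk1, the mitotic kinase, had a level of 7.94 and 5.63 per kb. Ccnb2, which encodes cyclin B2, had a lower level, 6.53, but 5.92 per kb, because its exons cover only 1531 bases. Ccnb1, which encodes cyclin B1, had a level of 5.64 and 3.56 per kb. Ccnb2 was therefore 5.11-fold above Ccnb1 per kb, although this fold ran from 2.00 to 5.11 over 4 definitions of length. Ccna2, which encodes cyclin A2, had a level of 6.88 and 4.86 per kb.

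The phosphatase gene Cdc25b, whose product removes the inhibitory phosphates from Cdk1, had a level of 6.0 and 4.10 per kb. Its relative Cdc25c had a level of 4.63 and 2.33 per kb, 3.41-fold lower per kb (1.63-fold to 3.41-fold over the 4 lengths). Plk1, the Polo-like kinase of mitotic entry and spindle assembly, had a level of 6.35 and 5.21 per kb, and Plk4, the kinase of centriole duplication, 5.53 and 2.75 per kb, which was 5.51-fold below Plk1 (2.71-fold to 5.51-fold). Aurka, the kinase of centrosomes and spindle poles, had a level of 6.27 and 4.93 per kb. Bora, whose product helps Aurka to activate Plk1, was among the 5 lowest, with a level of 4.76 and 2.39 per kb.

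**Figure D2:**
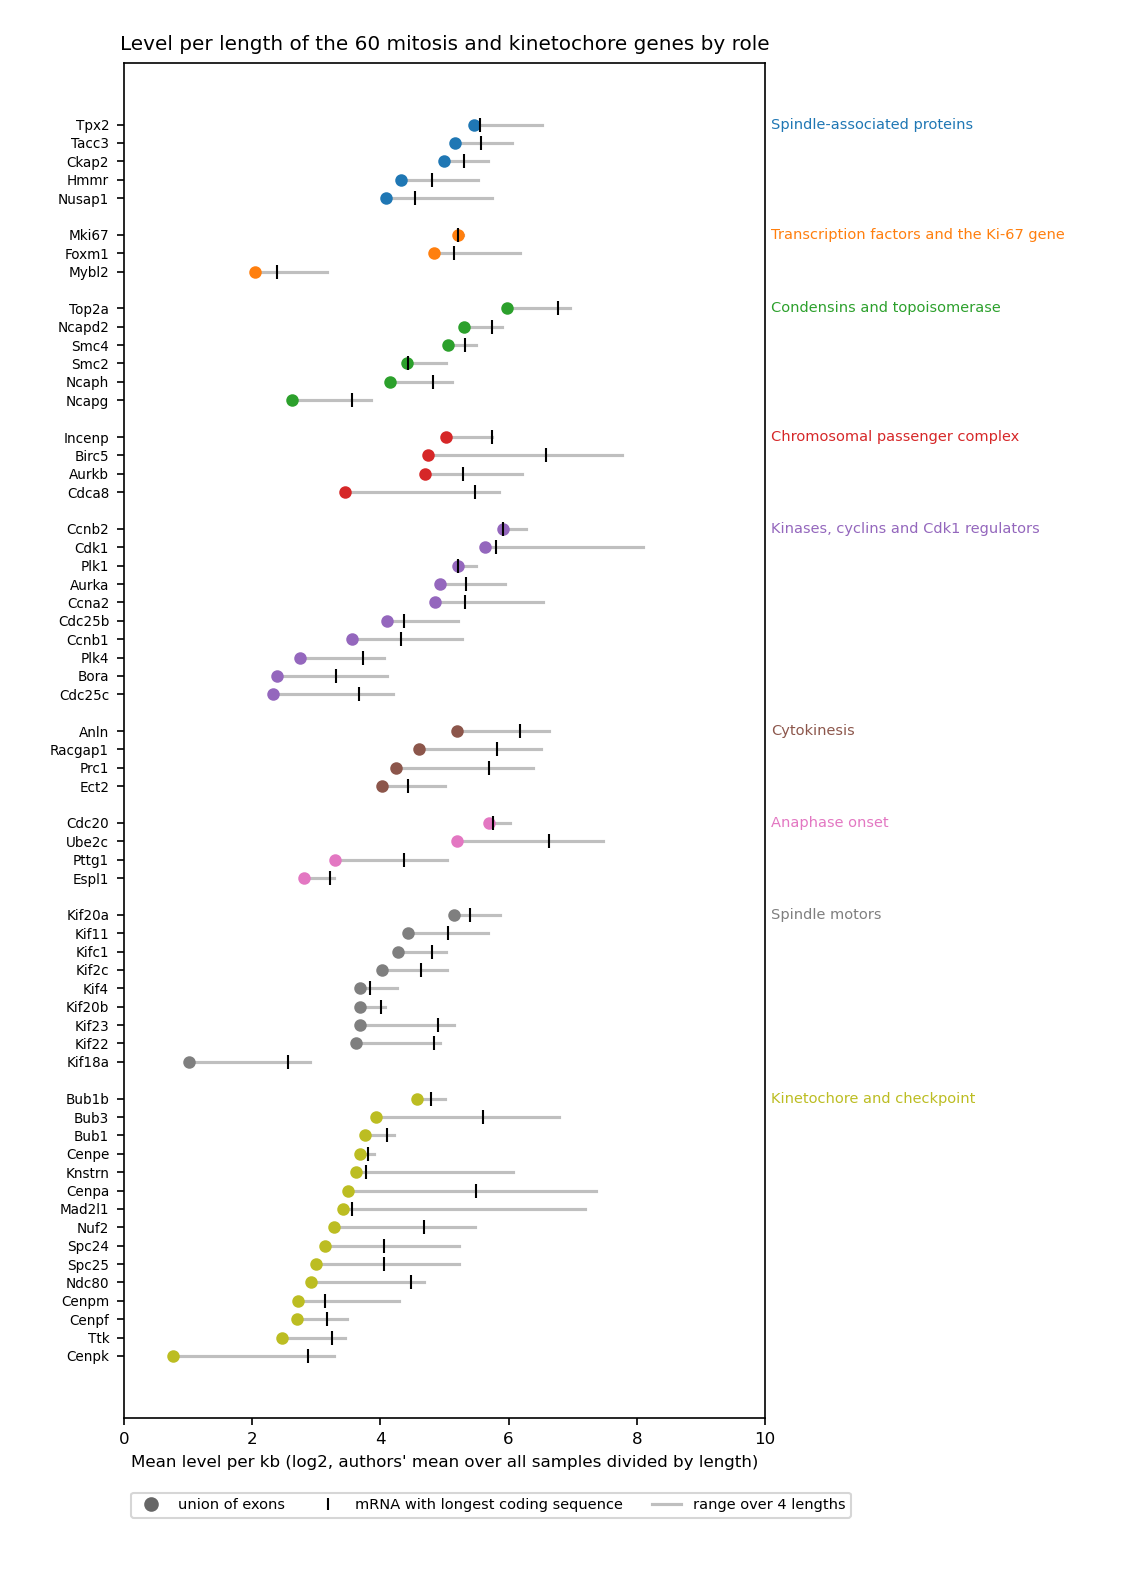
Level per kb (log2) of each of the 60 genes, grouped by role, with a dot for the union of exons, a tick for the mRNA with the longest coding sequence and a grey line for the range over the 4 lengths. Dots run from 0.77 for Cenpk to 5.98 for Top2a, and the grey line is longest for Cenpa and Mad2l1, where the coding sequence is a small part of the exons.

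Kinetochore and checkpoint genes, 15 in number, had the lowest median of the 9 roles per kb, 3.28 at percentile 58.9, and were the lowest under each of the 4 lengths. Under coding length their median was 5.02, against 5.03 for the spindle motors. Of the checkpoint genes, Bub1b, which encodes BubR1, the part of the checkpoint complex that binds Cdc20, had a level of 6.67 and 4.58 per kb. Bub1, a checkpoint kinase, had a level of 5.88 and 3.76 per kb, and Bub3, the common partner of both, 6.75 and 3.94 per kb. Mad2l1, which encodes Mad2, had a level of 6.48 and 3.42 per kb. Ttk, which encodes the checkpoint kinase Mps1, had a level of 4.77 and 2.47 per kb and was the lowest of these 5 under each length.

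At the centromere, Cenpa, the histone H3 variant that marks it, had a level of 6.04 and 3.49 per kb. Cenpe, a kinesin that carries chromosomes to the spindle equator, had 6.80 and 3.69 per kb. Cenpf, a large coiled-coil protein of the outer kinetochore, had a high level of 6.65 but 2.71 per kb, since its exons cover 15433 bases. Cenpk and Cenpm, of the constitutive centromere network, had the lowest levels of all 60 genes, 3.16 and 3.41, with 0.77 and 2.72 per kb. Knstrn, which encodes a protein of kinetochores and microtubule ends, had 5.98 and 3.62 per kb.

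The 4 genes of the NDC80 complex, the main microtubule grip of the kinetochore, were close to each other per kb. Nuf2 had 3.28 per kb, Spc24 3.14, Spc25 3.00 and Ndc80 2.92, although their levels were 5.95, 4.50, 4.67 and 5.62. They spanned 0.36 per kb on the log2 scale, or 1.28-fold, and 0.31 to 0.80 over the 4 lengths. In contrast, the 5 genes of condensin I spanned 2.68, or 6.42-fold, and the 5 checkpoint genes spanned 2.10, or 4.30-fold, which over the 4 lengths ran from 2.04 to 2.68 and from 1.55 to 3.73. With no replicate values, whether 2 neighbours in such an order differ beyond their error could not be examined.

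The chromosomal passenger complex corrects faulty attachments of kinetochores. Its scaffold Incenp had a level of 7.15 and 5.03 per kb, its survivin subunit Birc5 6.51 and 4.74 per kb, its kinase Aurkb 6.26 and 4.70 per kb, and its borealin subunit Cdca8 5.82 and 3.45 per kb. The 4 spanned 1.58 per kb, or 2.99-fold, and 1.29 to 2.02 over the 4 lengths. Their order depended on the length used: Incenp was the highest by exon length and Birc5 by coding length and by mRNA length.

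Of the 9 spindle motors, with a median level per kb of 3.69, Kif11, which slides antiparallel microtubules apart, had the highest level, 7.33, with 4.43 per kb. Kif20a, a motor of the central spindle, had 7.27 and the highest value per kb, 5.16, but 29.3% of its exon bases overlap exons of Cdc23 on the other strand. Kifc1, a minus-end motor, had 6.05 and 4.28 per kb. Kif2c, which takes microtubule ends apart, had 6.15 and 4.02 per kb. The chromosome-bound motors Kif4 and Kif22 had levels of 6.15 and 5.92, with 3.69 and 3.63 per kb. Kif20b and Kif23, both of the late spindle, had 6.48 and 6.66, with 3.68 per kb each. Kif18a, which dampens chromosome movements at the spindle equator, stood apart with a level of 4.31 and 1.01 per kb.

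Spindle-associated proteins had the highest role median per kb, 4.99, but cytokinesis genes were above them by the other 3 lengths, at 5.34 against 5.30 for the longest transcript and at 6.45 against 5.75 for the coding sequence. Tpx2, which activates Aurka on the spindle, had a level of 7.69 and 5.46 per kb. Tacc3, which helps to bundle spindle fibres, had 6.99 and 5.16 per kb, and Ckap2, a microtubule-binding protein, had 6.68 and 4.99 per kb. Hmmr, which encodes a protein of spindle poles, had 6.77 and 4.33 per kb, and Nusap1, which bundles microtubules near chromosomes, had 6.10 and 4.08 per kb.

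Top2a, the topoisomerase that untangles sister chromatids, had the highest level of the list, 9.15 at percentile 98.5, and the highest level per kb, 5.98 at percentile 93.7. Of condensin I, the complex that shapes mitotic chromosomes, Ncapd2 had a level of 7.95 and 5.31 per kb, and the ATPase subunits Smc4 and Smc2 had 7.44 and 6.86, with 5.06 and 4.41 per kb. Ncaph, its kleisin subunit, had 6.25 and 4.15 per kb, and Ncapg 5.44 and 2.62 per kb. Ncapd2 was the highest of the 5 and Ncapg the lowest under all 4 lengths.

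Cytokinesis genes had levels of 6.46 to 8.38. Anln, which encodes the contractile ring scaffold anillin, had 8.38 and 5.20 per kb, Racgap1, a partner of Kif23 in centralspindlin, 7.43 and 4.60 per kb, Prc1, which crosslinks the central spindle, 7.28 and 4.24 per kb, and Ect2, the exchange factor for RhoA, 6.46 and 4.03 per kb. Racgap1 was 1.90-fold above Kif23 per kb (1.29-fold to 2.58-fold over the 4 lengths).

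Of the genes of anaphase onset, Cdc20, the activator of the anaphase-promoting complex, had a level of 6.60 and 5.70 per kb, and Ube2c, its ubiquitin-conjugating enzyme, 6.58 and 5.20 per kb, with 22.8% of exon bases shared with Tnnc2 on the other strand. Pttg1, which encodes securin, had a level of 4.30 and 3.30 per kb, and Espl1, the separase that securin holds inactive, 5.95 and 2.82 per kb. By level Pttg1 was below Espl1 by 1.65, while per kb it was 1.39-fold above (1.27-fold to 3.39-fold over the 4 lengths), because its exons cover 2000 bases against 8749.

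Foxm1, a transcription factor of late cell cycle genes, had a level of 7.36 and 4.84 per kb, while Mybl2, which works with the MuvB complex on the same kind of gene, had 4.25 and 2.04 per kb. Foxm1 was 6.96-fold above Mybl2 per kb, and 6.78-fold to 8.04-fold over the 4 lengths. Mki67, which encodes Ki-67, the usual marker of dividing cells, had the second highest level of the list, 8.55, and 5.22 per kb, with exons that cover 10061 bases.

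Per kb, the 5 highest genes were Top2a, Ccnb2, Cdc20, Cdk1 and Tpx2, and the 5 lowest were Cenpk, Kif18a, Mybl2, Cdc25c and Bora. Of the 5 highest, 4 were also among the 5 highest by the longest transcript, 2 by mRNA length and 1 by coding length. Top2a, Cdk1, Ube2c and Anln were among the 10 highest under all 4 lengths, and Cenpf, Ncapg, Ttk, Mybl2, Kif18a and Cenpk among the 10 lowest.

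Partner genes set the members beside others of their family. In 26 pairs chosen after the values had been seen, 23 kept their order under all 4 lengths, and Aurka with Aurkb, Spc25 with Spc24 and Aurkb with Incenp did not. Cdk1 was 5.11-fold above Cdk2, the kinase of S phase entry (2.23-fold to 5.11-fold over the lengths), but 11.8-fold below Cdk4, the cyclin D kinase (7.64-fold to 16.6-fold). Ccnb1 was 11.0-fold below Ccnd1, which encodes cyclin D1 (8.16-fold to 17.9-fold). Ncapd2 was 5.37-fold above Ncapd3, its counterpart in condensin II (4.62-fold to 5.37-fold), while Ncaph was 1.91-fold below Ncaph2 (1.52-fold to 2.24-fold). Cdc20 was 3.15-fold above Fzr1, the activator that follows it in late mitosis (1.3-fold to 3.15-fold). Smc2 and Smc4 were 2.3-fold and 1.23-fold below the cohesin subunits Smc1a and Smc3, and Kif11 was 2.36-fold below Kif5b, a motor of cargo transport.

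**Figure D3:**
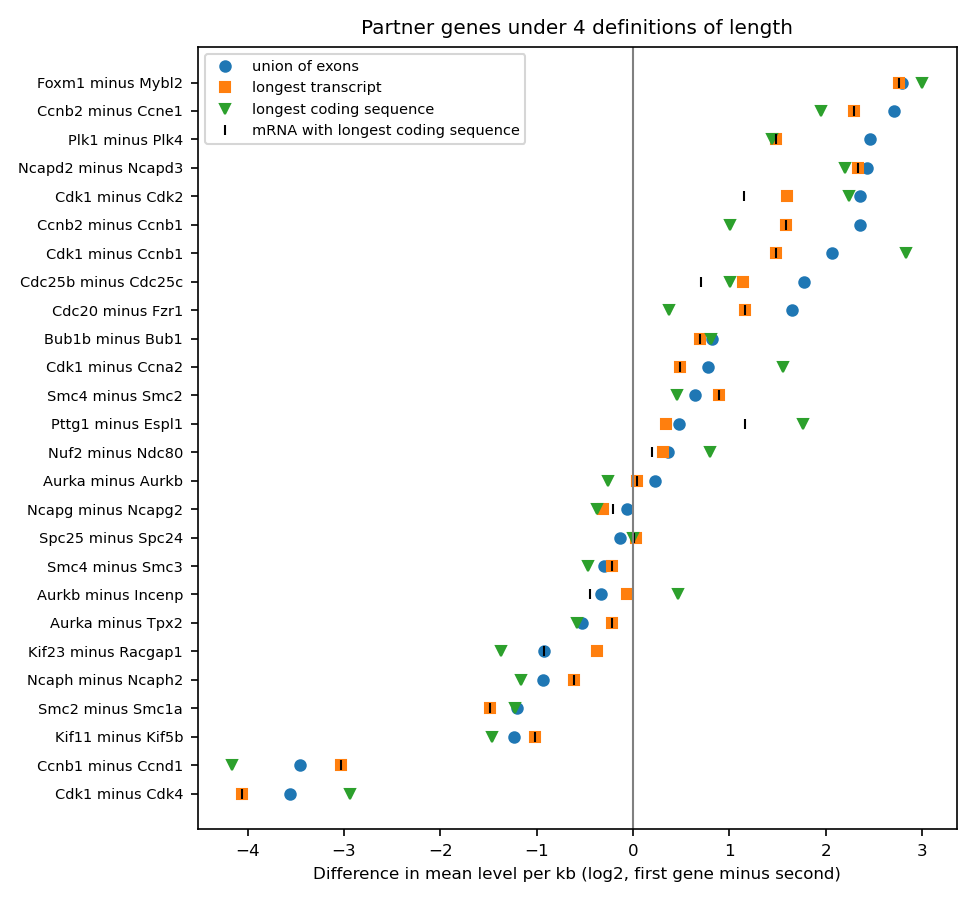
Difference in level per kb (log2, first gene minus second) for 26 pairs of partner genes, with a mark for each of the 4 lengths. The marks of Foxm1 minus Mybl2 lie at 2.76 to 3.01 and those of Cdk1 minus Cdk4 at -4.05 to -2.93, while 3 pairs have marks on both sides of 0.

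Other lists of the cell cycle had lower medians per kb than the 60 genes, 4.06, by exon length, but the anaphase-promoting complex and the G1 genes were higher by mRNA length, at 4.86 and 5.10 against 4.81. By coding length these lists and the Cdk inhibitors were higher, at 5.90, 6.34 and 5.59 against 5.39, and by the longest transcript the anaphase-promoting complex was, at 4.57 against 4.54. The anaphase-promoting complex list, all 16 with a row, had 3.82, from 0.67 for Anapc15 to 6.28 for Anapc5. That list counts the regulators Fzr1 and Fbxo5, which are not subunits, with the complex. Cohesin, with 8 of 9, had 3.85, from 2.94 for Pds5a to 6.29 for Rad21, its kleisin. Other centromere and kinetochore genes, with 20 of 22, had 2.93, from 0.73 for Cenpo to 5.32 for Cenpb, close to the 2.85 of all genes. Condensin II, all 3, had 2.88, from 2.68 for Ncapg2 to 5.08 for Ncaph2, and the MuvB and DREAM genes, all 11, had 2.55, from 0.96 for Lin52 to 5.35 for Tfdp1. The Cdk inhibitors, all 7, had 3.75, from 1.43 for Cdkn1c to 6.61 for Cdkn2a, and the G1 cyclins and kinases, all 8, had 3.39, from 0.70 for Cdk6 to 9.20 for Cdk4. Other mitotic kinases and phosphatase regulators, all 11, had 3.15, from 1.96 for Wee1 to 6.70 for Plk2. Transport kinesins, with 9 of 10, had 3.33, from -2.59 for Kif5c to 5.75 for Kif1c.

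In the promoters, the letters of late cell cycle genes were frequent among the members. RefSeq windows from 250 bases before to 50 after the start were given for 50 of the 60 genes, and Aurkb, Bora, Ccna2, Cdc25c, Foxm1, Incenp, Kif20a, Smc4, Spc24 and Tpx2 were not among them. CHR letters were found in 33 of 50 members, 66.0% (Wilson 95% interval 52.2 to 77.6), against 13.8% of the 8845 genes of the table with a window, members included, and 20.2% of all 27025 genes with a window. CCAAT was found in 35 of 50, 70.0% (56.2 to 80.9), against 43.7% and 41.1%. Both were found in 29 of 50, 58.0% (44.2 to 70.6), against 5.81% and 7.97%. These intervals cover counting error only. The median GC content was 59.6% in the members' windows and 61.3% in those of the table's genes.

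**Figure D4:**
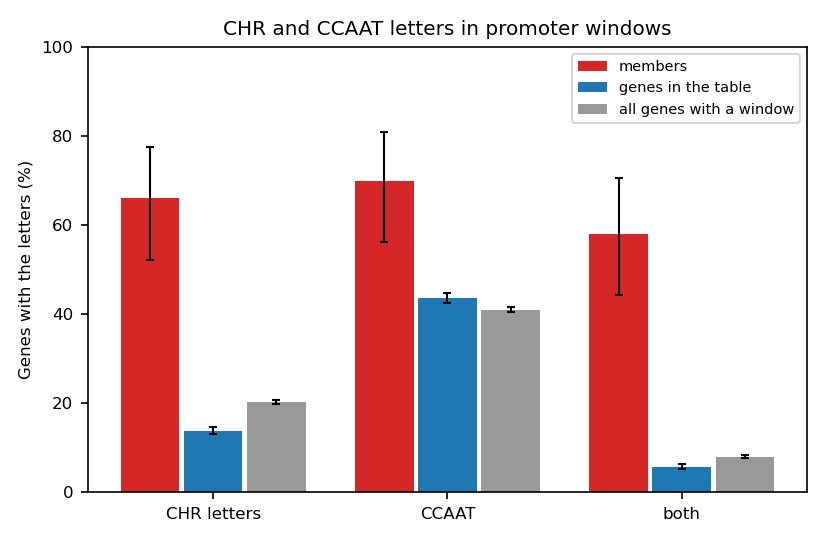
Share of genes (%) whose promoter window holds CHR letters, CCAAT or both, for 50 members, the 8845 genes of the table with a window and all 27025 genes with a window, with Wilson 95% intervals. The bars of the members, 66.0%, 70.0% and 58.0%, are above the other bars of each group.

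The CHR letters of the members also lay close to the RefSeq start. Some windows, such as those of Kif2c, Cdca8 and Kif4, lie inside the GENCODE gene, so distances depend on the start used. Letters in overlapping windows of a gene were counted once, at their distance from the nearest start. Of 42 CHR matches in members, 73.8% had their first base within 50 bases of the start, with a median position of -1.5, against 24.9% and -133 for the 1403 matches in the table's genes. CCAAT matches were spread further upstream, with a median position of -68 over 79 matches, and 74.7% lay in the 150 bases before the start, against 66.3% of the 6473 in the table's genes. In 28 members a CCAAT lay upstream of a CHR match. The shortest such spacing of each member had a median of 29.5 bases, and 14 of the 28 were between 25 and 50. Other pairs of the same member, as in Cdk1, Top2a and Kif22, lay further apart. No spacings over the table's genes were set beside these. CCAAT occurred at least 2 times in 23 members and 6 times in Top2a and Ube2c. The 6473 CCAAT matches of the table's genes lay in 3862 genes, and the share of those with at least 2 was not set beside this count. Matches were pooled over the windows of the 4 members with more than 1 window. The letters of the 2 motifs overlapped in 1 member.

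**Figure D5:**
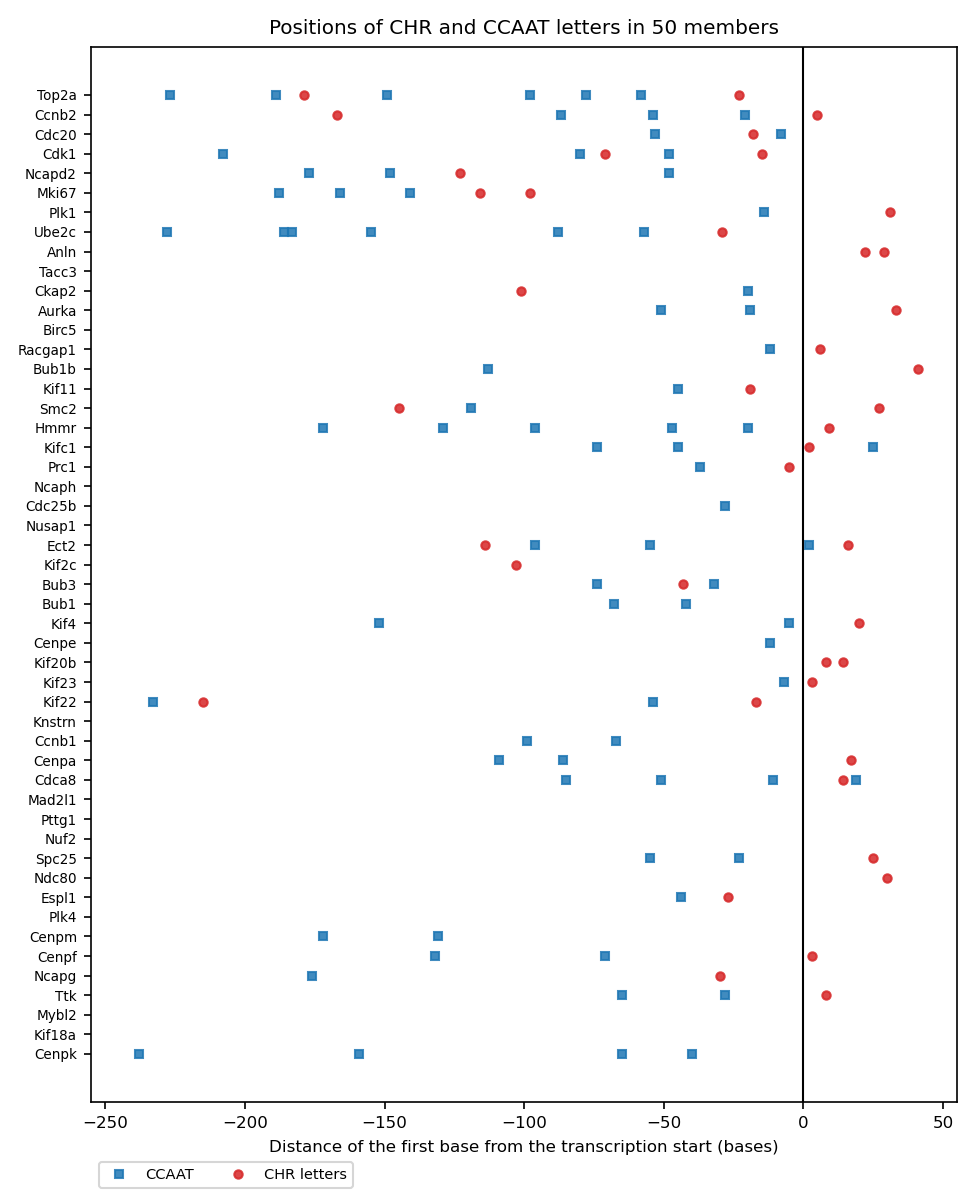
Position of the first base of each CHR match (circles) and CCAAT match (squares) against the transcription start (0, bases) in the 50 members with a window, ordered from the highest level per kb at the top. CHR circles gather around the start, with a median of -1.5, and CCAAT squares upstream of it, with a median of -68, while members such as Tacc3, Birc5, Ncaph, Nusap1 and Kif18a have neither.

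By role, the matches rest on 2 to 14 genes with a window each, and differences between roles were not tested. CHR letters were found in 4 of 4 cytokinesis genes, 7 of 8 spindle motors, 4 of 5 condensin and topoisomerase genes, 3 of 4 anaphase genes, 4 of 7 kinases and cyclins, 7 of 14 kinetochore and checkpoint genes, 2 of 4 spindle-associated genes, 1 of 2 passenger complex genes and 1 of 2 of Mki67 and Mybl2. Ccnb1, unlike Ccnb2, held 2 CCAAT and no CHR letters in its window. Members with CHR letters had a median level per kb of 4.28 (33 genes, 2.47 to 5.98) and those without had 3.56 (17 genes, 0.77 to 5.16). For CCAAT the medians were 4.10 (35 genes, 0.77 to 5.98) and 3.62 (15 genes, 1.01 to 5.20). These medians are by exon length only, and their ranges overlap. Roles differ in both letters and level, and a link of letters with level within roles was not tested. In the other lists, CHR letters were found in 7 of 20 other centromere and kinetochore genes and 3 of 7 MuvB and DREAM genes. They were in 3 of 15 genes of the anaphase-promoting complex list, with Fbxo5 among the 3, and 2 of 3 of condensin II. The counts were 1 of 6 for cohesin, 1 of 6 for Cdk inhibitors and 1 of 7 for transport kinesins. They were 0 of 5 for G1 genes and 0 of 9 for other mitotic kinases and phosphatase regulators. Beside these lists and the roles, the share was 13.8% of the table's genes with a window and 20.2% of all genes with one. The 3 of 15, 1 of 6 and 1 of 7 are near these shares.

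The members were spread over the genome, with 12 of the 60, 20%, on chromosome 2, against 8.01% of the table's genes. A protein-coding gene starts on the other strand within 1000 bases of the start of 7 members, 11.7%, against 10.7% of the table's coding genes. The closest were Kif20a with Brd8 at 12 bases, Foxm1 with Rhno1 at 56, Bora with Mzt1 at 88 and Ncapd2 with Mrpl51 at 100. Exons of 20 members overlapped those of another gene, 17 on the other strand, and the level of Kif20a and of Ube2c is uncertain to that extent, since the strand setting of the counting is not given in the sources used here. Ccnb1, Ccnb2, Kif22 and Kif4 each have a named pseudogene, and reads that match both would not have been counted as unique.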

How the data were processed

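RNA-seq of mSSC-YFP cells, 4 samples with DMSO and 4 with BMS493, was described from the processed table. The paper's methods give stranded mRNA libraries, single-end reads, alignment to mm10 with STAR 2.3.0e (processing notes also name FastQC and limma), counting of unique reads on Ensembl genes with Rsubread, and scaling with a weighted form of the trimmed mean of M-values. The labels' extraction text instead names array and qPCR kits. The authors deposited a mean log2 normalised expression per gene, with no sample named and the filter on genes not stated, and this other, derived value was the only unit used. The sum of 2 to the power of the level over all rows was 989369, near what values per 1e6 reads would give. Values already divided by length and scaled to 1e6 would give a similar sum, so it cannot tell the 2 apart. That the level was not yet per length was assumed, since the processing steps name no division by length. Columns of the authors' own comparison (log2 fold change, t statistic, p-value and adjusted p-value) were not used. Values of single samples were not analysed here, so depth per sample is unknown, and the planned test of BMS493 against DMSO could not be run. Whether the samples were separate cultures is not stated.

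The level per kb was the level minus log2 of exon length per 1000 bases, from GENCODE M21 (GRCm38). The paper counted reads on another, Ensembl release, so the exons counted and the exons measured may differ. Of 12589 rows, 11789 matched by symbol, 602 by an older symbol and 198 did not. Lengths tried as alternatives were the longest transcript, the longest coding sequence and, added after seeing the data, the transcript with the longest coding sequence (mRNA length). Promoter windows were searched on both strands for TTTGAA and CCAAT. The code was tested on simulated data. Python 3.11.15, numpy 2.4.6, pandas 2.3.3, scipy 1.17.1 and matplotlib 3.10.9 were used. By rule, every member with a row was named, the 5 highest and 5 lowest per kb were given as such, and of each other list the highest and lowest gene. The members and lists were chosen with earlier results of these data known.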

Additional observations from a re-analysis of the deposited data

How the results depend on the processing

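Of the alternative values for the summary results, 48 stayed within a factor of 1.5 or within the interval of a share and 27 did not, most of them among the 9 role medians. Under coding length 7 role medians moved, to 6.45 for cytokinesis, 6.03 for the passenger complex, 5.75 for spindle-associated proteins, 5.53 for anaphase onset, 5.38 for kinases and cyclins, 5.03 for spindle motors and 5.02 for kinetochore and checkpoint. Under mRNA length 5 moved, to 5.75 for cytokinesis, 5.61 for the passenger complex, 5.07 for anaphase onset, 4.81 for spindle motors and 4.05 for kinetochore and checkpoint, and under the longest transcript 2 moved, to 5.34 for cytokinesis and 4.64 for spindle motors. With no length correction all 9 moved, to 7.36 for the transcription factors with Mki67, 7.35 for cytokinesis, 7.15 for condensins and topoisomerase, 6.77 for spindle-associated proteins, 6.39 for the passenger complex, 6.26 for anaphase onset, 6.15 for spindle motors, 6.13 for kinases and cyclins and 5.95 for kinetochore and checkpoint. Keeping only members with a level of at least 3 removed no gene, since the lowest level was 3.16, so no role median could move. These 9 unchanged values are among the 48. The span per kb of condensin I was 2.04 under coding length, that of the B-type cyclins with Cdk1 was 1.59 under the longest transcript and 1.59 under mRNA length (chosen after seeing the data), and that of the checkpoint genes was 3.73 under coding length. Nothing but the length changes in these alternatives, and leaving it out changes the unit. A length shorter than the union of exons can only raise a value per kb. The median of all genes rose too, from 2.85 to 3.28 under the longest transcript, 3.47 under mRNA length and 4.55 under coding length. It was 4.99 with no length correction. A moved median is therefore not by itself a change of a role against the other genes. The median percentile of the 60 genes per kb ran from 66.6, against genes with a level of at least 3, to 75.8, under mRNA length. CHR letters within 100 bases before to 50 after the start were found in 60% of members, against 5.65% of the table's genes, and TTTGAA or TTTAAA in 74.0%, against 22.1%. Counted per window, CHR letters were in 65.5% of 55, against 11.6% of the 11414 windows of the table's genes. Among single members, 49 of 60 moved by more than a factor of 1.5 under coding length, 29 under mRNA length and 23 under the longest transcript. No paired analysis was possible because only a mean over samples was analysed. For the comparison of BMS493 with DMSO, which was not made, its other settings (another scaling, no filter on low values, leaving out each replicate and the replicate block) were not run either, and the search for KEN in the proteins was not run.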
